A study of Mus musculus with 24 samples.

Results

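The phase II conjugation enzymes described here were all genes whose mouse symbol starts with Ugt1, Ugt2, Ugt3, Sult or Gst, without pseudogenes. The rule found 65 genes among the 52636 gene identifiers of the files, of which 21 were UDP-glucuronosyltransferases (glucuronidation), 21 sulfotransferases (sulfation) and 23 glutathione S-transferases (glutathione conjugation). It left out 8 pseudogenes with the same prefixes, and it used symbols only, no measured value. The libraries held polyadenylated RNA recovered from polysome fractions of C57BL/6 mouse liver, that is mRNA loaded with ribosomes, sequenced as 24 libraries. The control mice ate ad libitum (AL). The restricted mice were placed on 30% calorie restriction (CR) at 2 months of age for 3 months. All mice were 5 months old, and no genotype or other agent is given for either diet. Livers were taken at 6 Zeitgeber times (ZT2, 6, 10, 14, 18 and 22 h), which gave 12 groups of diet and time with 2 libraries each. The labels do not say whether libraries of a group came from separate animals, so the p-values measure the spread between these libraries. Without total RNA, not analysed here, mRNA amount and ribosome loading cannot be told apart.

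Phase II enzymes attach a polar group to drugs, steroids, bilirubin, bile acids and reactive products of oxidation, so that these can be carried out of the hepatocyte into bile or blood. UDP-glucuronosyltransferases sit in the endoplasmic reticulum membrane and transfer glucuronic acid from UDP-glucuronate, cytosolic sulfotransferases transfer sulfate from PAPS, and glutathione S-transferases join glutathione to electrophiles. In mouse liver many of these genes lie in tandem arrays of similar copies. Several of them are known to differ between the sexes under the control of growth hormone pulses. Others are inducible through the receptors CAR, PXR and AHR or the factor NRF2. Sex predominance is named below as background for some genes only. No list of sex-biased genes was fixed, so whether such genes changed as a set was not tested.

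Across the 24 libraries, 13.8 to 60.8 M reads were counted on genes, and 1.02 to 62.2% of these lay on ribosomal RNA features. The 65 enzymes took 0.613 to 1.42% of the remaining counts. Every library held 409 to 5240 counts of the Y-linked Ddx3y and 0 to 12 counts of Xist, as male tissue does. A pair of libraries stood apart. AL ZT22 2C held the lowest AL level for 28 of the 52 tested enzymes and had the highest acute phase sum (42330 CPM, the count per 1e6 counts of the TMM-scaled library, against a lowest AL value of 1955), and CR ZT6 2 held the lowest CR level for 29 of 52. Hepatocyte markers were abundant in every library (summed level 47049 to 143850 CPM over 12 genes), with none of the 12 at 0. Over all tested genes, 5.60% were called higher in CR and 7.05% lower (test given below). Kupffer cell markers were lower in CR for 10 of 11 and higher for 1, with sums of 224 to 651 CPM in AL and 128 to 232 CPM in CR. Stellate cell markers were higher in CR for 4 of 8, and their sums ran from 87.4 to 325 CPM in AL and 184 to 317 CPM in CR. Of 7 periportal hepatocyte markers, 5 were higher and 1 was lower, with sums of 1069 to 2496 CPM in AL and 1653 to 5072 CPM in CR. Fewer cells of a type and less RNA per cell cannot be told apart in such bulk samples, and the part of these markers in the differences below was not tested. The 7 cholangiocyte markers gave no call, 1 of 7 pericentral hepatocyte, 2 of 7 lymphocyte, 1 of 5 erythroid and 3 of 9 acute phase genes were lower, and endothelial markers gave 1 higher and 1 lower of 7.

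Of the 65 enzymes, 52 had enough counts to be tested, and 27 of these differed between the diets when the 6 time points were averaged (edgeR's quasi-likelihood test, Benjamini-Hochberg adjustment over all 15490 tested genes, adjusted p under 0.05). That is 27 of 52 against a background of 12.7% of all genes. CR was higher for 16 enzymes (background 5.60%) and lower for 11 (background 7.05%). Among sulfotransferases 9 were higher, 2 were lower and 3 were not called, with a median log2 change of 1.87. Among UDP-glucuronosyltransferases 1 was higher, 7 were lower and 8 were not called, with a median of -0.21. Among glutathione S-transferases 6 were higher, 2 were lower and 14 were not called, with a median of 0.15. The median over all tested genes was -0.02. At least a doubling or halving of the level was estimated for 22 of the 27 called enzymes and for 828 of the 1960 called genes.

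**Figure D1:**
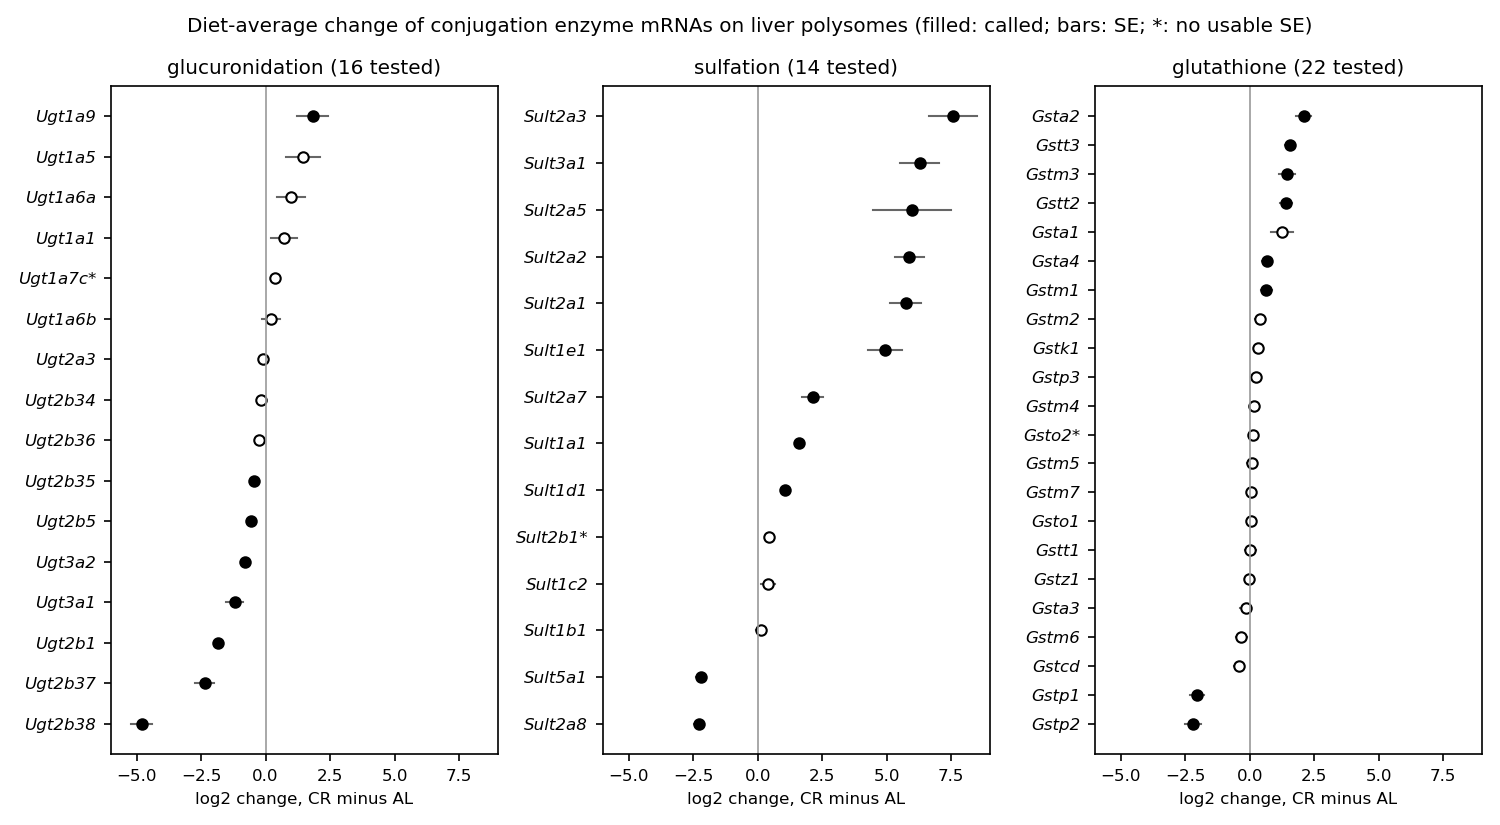
Log2 change between diets (CR minus AL, averaged over 6 time points) of the 52 tested enzymes, by class; bars are standard errors, filled points are called, and an asterisk marks the 3 enzymes without a usable standard error, among the 5 with a group without counts (Ugt1a7c, Gsto2, Sult2a3, Sult2a5 and Sult2b1). The sulfation panel holds the largest positive values (up to 7.58), and the lowest value is -4.81 for Ugt2b38.

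Fewer enzymes were called among the libraries with more ribosomal RNA. In the 12 libraries of lower share (6 AL and 6 CR), an additive model of diet and time called 13 enzymes higher and 8 lower, with 1744 of 16892 genes called. In the 12 of higher share it called 3 higher (Sult1a1, Sult2a1 and Sult2a2) and 5 lower (Ugt2b38, Ugt2b1, Gstp2, Sult2a8 and Sult5a1), with 84 of 13956 genes called. The libraries of lower share held both diets only at ZT10 and ZT18, and those of higher share only at ZT6 and ZT22. The diet term of each fit rests on these time points. Ribosomal RNA share, time point and the smaller number of libraries cannot be told apart in these fits. Calls on all 24 libraries that were lost even among the libraries of lower share were Ugt1a9, Ugt2b35, Ugt2b37, Ugt3a1, Gsta4, Gstm1 and Sult2a5. Without AL ZT10 1 and AL ZT22 2C, 14 enzymes were higher and 10 lower, with 1293 of 16697 genes called. Without CR ZT6 2 and CR ZT18 2, 15 were higher and 11 lower, with 1726 of 16524 genes called. Of the 16 enzymes called higher on all libraries, 14 in CR ZT6 2 did not exceed the highest AL library. In each other CR library this held for 1 to 5 of them. Of the 11 called lower, 9 in CR ZT18 2 were not below the lowest AL library, and 3 to 6 in each other CR library. These library counts were not made over all genes, so they have no background share. All 12 CR libraries lay above all 12 AL libraries for a single enzyme, Sult1a1 (background 0.110%), and below them for a single enzyme, Sult2a8 (background 0.174%). In 13 enzymes CR was higher at each of the 6 time points (background 6.42%), and in 8 it was lower at each (background 7.77%).

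Promoter sequences from RefSeq (GRCm38.p6, 250 bases before to 50 after the start) were on hand for 57 of the 65 members; of the 8 others, Gsta4, Gstt2, Sult2a1, Sult2a2 and Sult2a7 were higher and Ugt3a2 lower, so 11 of the 16 higher and 10 of the 11 lower members are covered. They are printed for 1 called member in each direction of each class, that of smallest p among the called members with a sequence. Called members without a sequence could not be chosen. Capitals mark matches, on either strand, to ARE TGACNNNGC, XRE GCGTG, D-box TTANGNAA, E-box CACGTG, HNF1 GTTAAT and STAT TTCNNNGAA. The positions are chr1:88070529-88070828, plus strand for Ugt1a9; chr5:87424154-87424453, minus strand for Ugt2b38; chr7:126676369-126676668, minus strand for Sult1a1; chr7:14446538-14446837, minus strand for Sult2a8; chr10:75781365-75781664, minus strand for Gstt3; chr19:4037863-4038162, minus strand for Gstp1. The start used for Sult2a8 lies 182 bases, and that for Gstp1 73 bases, from the gene start of the annotation behind the counts.
Ugt1a9: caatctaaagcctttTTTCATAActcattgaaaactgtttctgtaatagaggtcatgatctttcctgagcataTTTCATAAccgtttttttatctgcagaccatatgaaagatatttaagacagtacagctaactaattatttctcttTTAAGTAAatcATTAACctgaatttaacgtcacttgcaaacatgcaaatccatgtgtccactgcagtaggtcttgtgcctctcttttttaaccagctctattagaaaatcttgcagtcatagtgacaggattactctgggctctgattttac
Ugt2b38: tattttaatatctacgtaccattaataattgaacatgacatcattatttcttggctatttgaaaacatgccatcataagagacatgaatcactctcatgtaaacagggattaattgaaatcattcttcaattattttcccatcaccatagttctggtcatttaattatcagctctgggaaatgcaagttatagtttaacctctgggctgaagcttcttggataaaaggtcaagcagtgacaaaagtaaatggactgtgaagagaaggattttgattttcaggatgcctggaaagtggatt
Sult1a1: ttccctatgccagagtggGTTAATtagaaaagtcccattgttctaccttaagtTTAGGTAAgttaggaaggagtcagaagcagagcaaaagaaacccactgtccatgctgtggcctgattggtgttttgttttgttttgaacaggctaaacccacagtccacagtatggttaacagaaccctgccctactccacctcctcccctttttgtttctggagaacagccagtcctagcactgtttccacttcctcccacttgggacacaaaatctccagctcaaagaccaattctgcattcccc
Sult2a8: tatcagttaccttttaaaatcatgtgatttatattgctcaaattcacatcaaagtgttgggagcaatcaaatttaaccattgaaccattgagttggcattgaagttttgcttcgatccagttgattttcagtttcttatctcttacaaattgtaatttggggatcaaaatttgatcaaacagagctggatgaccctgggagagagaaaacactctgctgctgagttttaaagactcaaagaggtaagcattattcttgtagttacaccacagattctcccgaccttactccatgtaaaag
Gstt3: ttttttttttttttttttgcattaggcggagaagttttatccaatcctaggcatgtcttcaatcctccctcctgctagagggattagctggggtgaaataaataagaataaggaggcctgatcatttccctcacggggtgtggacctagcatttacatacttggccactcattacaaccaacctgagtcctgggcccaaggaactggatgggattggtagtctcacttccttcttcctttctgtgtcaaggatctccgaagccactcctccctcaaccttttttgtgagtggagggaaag
Gstp1: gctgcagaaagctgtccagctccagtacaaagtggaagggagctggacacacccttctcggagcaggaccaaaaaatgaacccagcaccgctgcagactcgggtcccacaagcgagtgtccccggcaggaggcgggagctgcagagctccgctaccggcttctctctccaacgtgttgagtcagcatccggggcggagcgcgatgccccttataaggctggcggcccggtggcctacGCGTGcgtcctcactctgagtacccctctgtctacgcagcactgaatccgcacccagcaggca
The Ugt1a9 window held 3 D-box matches and 1 HNF1 match, that of Sult1a1 1 of each, and that of Gstp1 an XRE match 13 bases before the start. The other three windows held none of the letters searched. HNF1 matches were found in 5 of 11 promoters of members that were higher, 1 of 10 of members that were lower and 4 of 24 that were not called, and in 4 of 12 of members not tested, against 7.10% of all 32851 promoters of this length. XRE matches were found in 3 of 11, 1 of 10 and 6 of 24 (32.4% of all), D-box matches in 2 of 11, 1 of 10 and 4 of 24 (11.5% of all), and STAT matches in 1 of 11, none of 10 and 2 of 24 (8.30% of all). ARE matches in the form TGACNNNGC were in 2 promoters of members not called (12.4% of all), and no member held the E-box (7.15% of all). Other forms of the ARE were not searched, so their presence in these promoters is not known from this count. These matches are letters in a window and no measure of binding.

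Of the 7 glucuronidation genes that were lower, 5 belong to the Ugt2b cluster on chromosome 5. Ugt2b38, whose promoter window held none of the motifs searched and which is higher in male than in female mouse liver, had a lowest, median and highest level of 4.69, 21.1 and 44.0 CPM in the 12 AL libraries and of 0.0402, 0.450 and 12.6 CPM in the 12 CR libraries. In 10 of 12 CR libraries the level was below every AL library. The other two CR libraries, CR ZT6 2 with 6.64 CPM and CR ZT18 2 with 12.6 CPM, overlapped the AL range. Its group means were 8.06, 34.1, 18.1, 23.4, 31.5 and 7.84 CPM in AL and 0.172, 3.78, 0.136, 0.695, 7.03 and 0.177 CPM in CR at ZT2 to ZT22, and its log2 change was -4.81 (SE 0.40, adjusted p = 2.28e-08). Ugt2b1, another male-predominant enzyme, fell from 218 ± 68.5 to 61.5 ± 20.8 CPM (mean ± SD, n = 12 libraries each). Its AL libraries spanned 78.9 to 341 CPM and its CR libraries 37.5 to 107 CPM, and they overlapped only because CR ZT10 2 and CR ZT18 2 exceeded AL ZT22 2C, the lowest AL library. Ugt2b1 had group means of 228, 206, 225, 311, 214 and 126 CPM in AL from ZT2 to ZT22 and 47.1, 64.2, 83.9, 56.8, 78.4 and 38.5 CPM in CR. Its log2 change was -1.83 (SE 0.16, adjusted p = 4.08e-08). Ugt2b37, a scarce transcript, had 0.156, 1.41 and 3.08 CPM as lowest, median and highest in AL and 0.0794, 0.230 and 1.39 CPM in CR, a log2 change of -2.37 (SE 0.38, adjusted p = 1.63e-04). Ugt2b37 had group means of 1.72, 1.61, 1.04, 2.77, 2.11 and 0.250 CPM in AL from ZT2 to ZT22 and 0.0925, 0.283, 0.230, 0.183, 0.885 and 0.200 CPM in CR.

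Per kilobase, the UDP-glucuronosyltransferase mRNAs of highest mean level in AL were Ugt2b5, Ugt2b36 and Ugt2b1. Ugt2b5 reached 307 ± 169 CPM per kilobase of exon in AL and 189 ± 42.4 in CR, Ugt2b36 176 ± 77.6 and 142 ± 29.5, and Ugt2b1 84.9 ± 26.6 and 23.9 ± 8.10. Ugt2b36 stood at a log2 change of -0.26 (SE 0.15, adjusted p = 0.285), which did not pass, with group means of 276, 611, 397, 309.6, 347 and 240.3 CPM in AL and 286, 246, 305, 393, 298 and 232 CPM in CR. Ugt2b5, a major enzyme for steroids and xenobiotics, changed by -0.57 (SE 0.16, adjusted p = 0.022), with group means of 357, 1099.5, 655, 477, 564 and 267 CPM in AL at ZT2 to ZT22 and 291, 351, 317, 474, 387 and 291 CPM in CR. All 12 CR libraries of Ugt2b5 lay inside its AL range. The difference was widest at ZT6 (AL 1391 and 808 CPM, CR 273 and 429 CPM) and its sign was opposite at ZT22. Its call was lost in 6 of 24 fits that each left out a library (AL ZT6 1, AL ZT10 1, AL ZT22 2d, CR ZT2 1, CR ZT22 1 or CR ZT22 2), with an adjusted p of 0.0532 to 0.0721. The neighbour Ugt2b35 fell by 0.45 on the log2 scale (SE 0.12, adjusted p = 0.0155), and lost its call without AL ZT10 1 (adjusted p = 0.0577) or CR ZT22 1 (adjusted p = 0.0562). Ugt2b35 had group means of 102, 113, 126, 77.7, 69.5 and 75.6 CPM in AL from ZT2 to ZT22 and 78.4, 62.5, 66.4, 56.5, 57.0 and 86.8 CPM in CR. Ugt2b34 and Ugt2a3 had log2 changes of -0.16 and -0.10 and did not pass.

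Both Ugt3 genes, whose family is known to use other UDP-sugars than UDP-glucuronate, were lower in CR. Ugt3a2 changed by -0.78 (SE 0.17, adjusted p = 0.00354), from 111 ± 39.8 to 63.6 ± 13.6 CPM, with overlapping ranges of 59.6 to 183 and 38.1 to 83.3 CPM. Ugt3a2 had group means of 132, 136, 117, 104, 112 and 65.7 CPM in AL from ZT2 to ZT22 and 65.2, 47.7, 71.5, 73.5, 66.7 and 57.2 CPM in CR. Ugt3a1 changed by -1.20 (SE 0.33, adjusted p = 0.0176). Its 12 AL libraries had 0.895, 2.50 and 6.17 CPM as lowest, median and highest and its CR libraries 0.174, 0.851 and 10.9, where the highest value was CR ZT10 2. Ugt3a1 had group means of 5.80, 1.33, 2.72, 3.0, 2.07 and 3.57 CPM in AL from ZT2 to ZT22 and 2.13, 0.834, 5.90, 0.645, 1.10 and 0.454 CPM in CR.

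The Ugt1 locus on chromosome 1 has alternative first exons spliced to shared later exons, and its products include Ugt1a1, the enzyme that conjugates bilirubin. In these files the locus was nearly empty: the 9 Ugt1a genes together had 7907 counts over all 24 libraries. Of each gene's exon bases 50.3 to 82.7% are shared with other genes of the annotation, so counts on shared exons may have been left out and the Ugt1a levels given here rest mainly on the first exons. Of the 6 tested Ugt1a genes only Ugt1a9 was called, with a log2 change of 1.83 (SE 0.60, adjusted p = 0.0494). Its 12 AL libraries had 0.0825, 0.980 and 2.57 CPM and its 12 CR libraries 0.146, 1.64 and 44.6 CPM. The highest CR values were CR ZT10 2 (44.6 CPM), CR ZT2 1 (11.4 CPM) and CR ZT2 2 (7.60 CPM), while CR ZT10 1 had 0.146 CPM, the lowest of the diet. Ugt1a9 had group means of 1.25, 0.745, 1.25, 0.791, 0.215 and 1.72 CPM in AL from ZT2 to ZT22 and 9.52, 1.67, 22.4, 1.21, 0.990 and 1.48 CPM in CR. The call was kept in only 6 of 24 fits without 1 library, the log2 change was 0.62 without CR ZT10 2, and among the 12 libraries with less ribosomal RNA it was -0.70. The median level of Ugt1a9 was 0.638 CPM in the 12 libraries of lower share and 1.67 CPM in the 12 of higher share, and that of Ugt1a1 2.07 and 4.88 CPM. The medians were 0.545 and 3.29 CPM for Ugt1a5, 0.431 and 1.42 CPM for Ugt1a6b, and 0.447 and 0.484 CPM for Ugt1a6a. Those of Ugt1a7c were 0 and 0.163 CPM. Within AL the medians of Ugt1a5 were 0.681 and 0.512 CPM, and within CR 0.480 and 6.42 CPM. Within AL those of Ugt1a9 were 0.719 and 1.11 CPM, and within CR 0.638 and 5.12 CPM. The part of the ribosomal RNA share in the Ugt1a9 difference was not tested. Ugt1a1, Ugt1a5, Ugt1a6a, Ugt1a6b and Ugt1a7c did not pass, at log2 changes of 0.72, 1.44, 0.98, 0.21 and 0.38. A group without counts left Ugt1a7c without a usable standard error, and the additive model gave it 0.50 (SE 0.84).

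Sulfation had the largest median change of the 3 classes. Sult1a1, the main phenol sulfotransferase, with an HNF1 and a D-box match in its promoter window, had 102, 121 and 217 CPM as lowest, median and highest level in AL and 255, 411 and 618 CPM in CR. The ranges did not overlap. Group means at ZT2 to ZT22 were 115, 151, 104, 128, 178 and 130.4 CPM in AL and 260.4, 383, 397, 510.4, 477 and 428 CPM in CR, and the log2 change was 1.60 (SE 0.15, adjusted p = 1.29e-07). Sult1d1, which sulfates catecholamines and eicosanoids, changed by 1.06 (SE 0.15, adjusted p = 5.68e-05), from 52.4 ± 14.4 to 112 ± 32.6 CPM, with 9 of 12 CR libraries above every AL library. Group means of Sult1d1 were 53.8, 43.9, 58.6, 50.3, 45.9 and 61.8 CPM in AL and 93.5, 63.1, 143, 135, 129 and 111 CPM in CR.

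Sult1e1, Sult2a1, Sult2a2, Sult2a3, Sult2a5 and Sult3a1 stayed under 2 CPM in every AL library and were higher in CR. Sult1e1, the oestrogen sulfotransferase, had 0.0202, 0.257 and 0.747 CPM in AL and 0, 7.16 and 25.8 CPM in CR, a log2 change of 4.92 (SE 0.66, adjusted p = 1.99e-05). The call was lost without CR ZT6 1, which leaves CR ZT6 with the library without counts (log2 change 3.26, adjusted p = 1), and the change was 4.03 without CR ZT2 1. Sult1e1 had group means of 0.0869, 0.155, 0.126, 0.658, 0.380 and 0.285 CPM in AL from ZT2 to ZT22 and 3.09, 3.60, 5.20, 9.22, 16.7 and 10.4 CPM in CR. In CR the level reached 25.8 CPM in CR ZT18 1, while CR ZT6 2 had no counts and CR ZT2 2 had 0.0703 CPM. Sult2a1, a bile acid and hydroxysteroid sulfotransferase that is female-predominant in mouse liver, changed by 5.74 (SE 0.59, adjusted p = 5.47e-07). Its AL libraries held 0.0825 to 1.49 CPM. Its CR libraries held 13.3 and 10.1 CPM at ZT2, 9.04 and 0.730 at ZT6, 1.21 and 7.17 at ZT10, 269.7 and 8.68 at ZT14, 10.3 and 4.37 at ZT18, and 57.7 and 109 at ZT22. CR ZT14 1 and both ZT22 libraries were high, and CR ZT6 2 and CR ZT10 1 lay inside the AL range. Without CR ZT14 1 the log2 change of Sult2a1 was 5.06. Sult2a1 had group means of 0.833, 0.233, 0.178, 0.392, 0.471 and 0.207 CPM in AL from ZT2 to ZT22 and 11.7, 4.89, 4.19, 139, 7.32 and 83.3 CPM in CR.

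Sult2a2 was highest in the same libraries: 0, 0.280 and 1.14 CPM in AL and 0.797, 12.7 and 215 CPM in CR, with 215 CPM in CR ZT14 1 and 44.7 and 94.8 CPM at ZT22. Its log2 change was 5.88 (SE 0.55, adjusted p = 1.29e-07), and 6.73 without AL ZT22 2d. Sult2a2 had group means of 0.424, 0.361, 0.195, 0.468, 0.693 and 0.129 CPM in AL from ZT2 to ZT22 and 15.9, 6.22, 4.81, 117, 9.96 and 69.8 CPM in CR. The 2 copies could not be separated firmly, since 62.1% of the 50-base words of Sult2a2 and 33.2% of those of Sult2a1 occur in other genes. Sult2a3 had 12 counts in the AL libraries together and 1671 in the CR libraries, with 3 groups without counts, and its change was 7.58 (SE 0.93, adjusted p = 1.60e-05) in the group model and 6.25 (SE 0.74, adjusted p = 1.03e-06) in the additive model. Without CR ZT6 1 the group model did not call it (6.14, adjusted p = 1), and it gave 8.30 without AL ZT6 2 and 6.88 without CR ZT10 2. Sult2a3 had group means of 0.0384, 0.0959, 0, 0, 0.0923 and 0 CPM in AL from ZT2 to ZT22 and 1.67, 1.59, 1.84, 14.5, 3.08 and 3.19 CPM in CR. Sult2a5 had 3 counts in AL and 873 in CR, of which 700 came from CR ZT14 1. Other genes, Sult2a1 and Sult2a2 among them, hold 34.5% of its 50-base words. CR ZT14 1 was also the top library of Sult2a1 and Sult2a2, so part of these counts may be theirs. The change of Sult2a5 was 5.98 (adjusted p = 0.014) in the group model, with 4 groups without counts. Its additive estimate was 6.00 (SE 0.90, adjusted p = 3.36e-05). Without CR ZT6 2 the group model did not call Sult2a5 (5.42, adjusted p = 1), and without CR ZT14 1 it gave 5.22. Sult3a1, a female-predominant amine sulfotransferase, had 0 to 0.172 CPM in AL and 0.0325, 2.28 and 13.4 CPM in CR, a change of 6.27 (SE 0.75, adjusted p = 4.44e-06). Its highest libraries were CR ZT10 1 (13.4 CPM) and CR ZT6 1 (6.45 CPM), while CR ZT14 1, the top library of Sult2a1, was the lowest (0.0325 CPM). Leaving out 1 library moved the fold change of Sult3a1 by over 1.5 times for CR ZT14 2 (log2 change 5.36), CR ZT6 1 (5.51), AL ZT6 2 (6.89) and AL ZT22 2d (7.04), with the call kept. It was 10.07 among the libraries with less ribosomal RNA and 4.15 among those with more (adjusted p = 0.237). Sult3a1 had group means of 0.0256, 0.0639, 0.0116, 0.0267, 0.0238 and 0.0858 CPM in AL from ZT2 to ZT22 and 1.64, 3.29, 9.57, 1.59, 2.43 and 1.21 CPM in CR. Sult2a7 changed by 2.14 (SE 0.41, adjusted p = 0.00125), from 2.08 ± 1.28 to 9.22 ± 6.06 CPM.

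Against this direction, Sult2a8 and Sult5a1 fell. Sult2a8, a hydroxysteroid and bile acid sulfotransferase, had the highest mean level per kilobase among sulfotransferases in AL (107 ± 30.0 CPM per kilobase, n = 12) and stood at 25.1 ± 14.6 in CR. Its AL libraries had 187, 360.3 and 576 CPM and its CR libraries 23.8, 66.0 and 175 CPM, with no overlap. Group means were 372, 459, 382, 331, 319 and 253 CPM in AL and 47.4, 120.4, 95.3, 62.1, 144 and 26.1 CPM in CR, and the change was -2.29 (SE 0.18, adjusted p = 8.77e-09). Sult5a1 had 8.28, 14.2 and 34.5 CPM in AL and 1.43, 3.06 and 13.5 CPM in CR, where CR ZT6 2 (12.6 CPM) and CR ZT18 2 (13.5 CPM) overlapped the AL range, and its log2 change was -2.20 (SE 0.20, adjusted p = 1.11e-07). Sult5a1 had group means of 11.7, 32.0, 9.73, 20.2, 24.5 and 12.2 CPM in AL from ZT2 to ZT22 and 1.69, 8.66, 3.13, 2.57, 9.46 and 2.04 CPM in CR. Sult1b1 and Sult1c2 did not pass, at log2 changes of 0.12 and 0.41. Sult2b1, the cholesterol sulfotransferase, was near absence in both diets (0 to 0.301 and 0 to 0.406 CPM) and had 0.44 (SE 0.85) in the additive model.

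**Figure D2:**
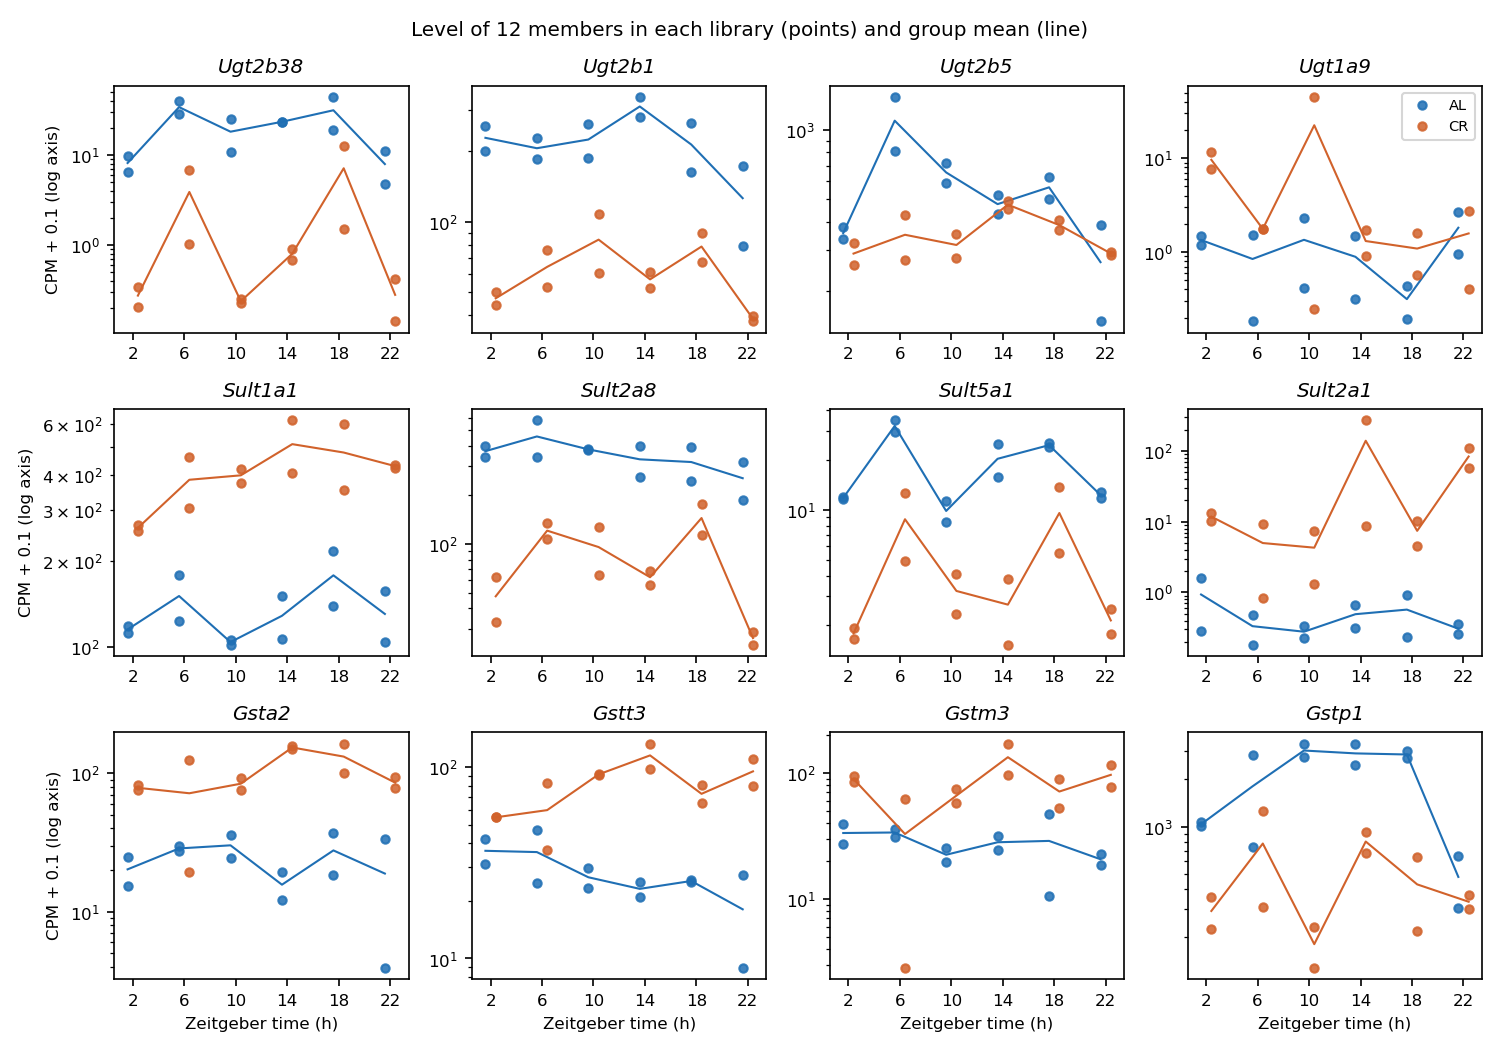
Level in CPM plus 0.1 (log axis) against Zeitgeber time (h) of 12 enzymes, with each library as a point and group means as lines, AL blue and CR orange. Sult1a1 and Sult2a8 show no overlap between the diets, Sult2a1 in CR spans 0.730 to 269.7 CPM, and Gstp1 in AL spans 303 to 3358 CPM.

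Glutathione S-transferases changed in both directions. Gstt3, a theta-class enzyme, had 8.83, 25.4 and 47.1 CPM in AL and 36.8, 81.4 and 133 CPM in CR, with 11 of 12 CR libraries above every AL library, and its change was 1.56 (SE 0.18, adjusted p = 2.56e-06). Its group means were 36.5, 35.9, 26.5, 23.0, 25.3 and 18.0 CPM in AL and 54.6, 59.6, 91.7, 115, 72.5 and 95.1 CPM in CR. Gsta2, an alpha-class enzyme inducible through NRF2, had 3.83, 24.6 and 36.8 CPM in AL and 19.3, 92.8 and 164 CPM in CR. Only CR ZT6 2 (19.3 CPM) fell within the AL range, and the log2 change was 2.09 (SE 0.29, adjusted p = 2.77e-05). Gsta2 had group means of 20.2, 28.6, 30.1, 15.6, 27.6 and 18.8 CPM in AL from ZT2 to ZT22 and 78.6, 71.7, 84.1, 154, 132 and 85.6 CPM in CR. Gsta1, which shares 90.5% of its 50-base words with other genes, Gsta2 among them, had a log2 change of 1.25 (SE 0.44, adjusted p = 0.0638). Gstt2 changed by 1.42 (SE 0.24, adjusted p = 2.83e-04), from 82.1 ± 69.5 to 211 ± 109 CPM, with group means of 30.9, 92.2, 87.6, 79.0, 164 and 38.2 CPM in AL and 88.9, 229, 167, 399, 251 and 132 CPM in CR. Gstm3, a mu-class enzyme, had 10.5, 26.2 and 46.9 CPM in AL and 2.72, 81.0 and 171 CPM in CR and changed by 1.46 (SE 0.31, adjusted p = 0.00294). The lowest CR value of Gstm3 was CR ZT6 2, below every AL library, while the other 11 CR libraries lay above every AL library. Without CR ZT6 1, which leaves that library alone at ZT6, the log2 change of Gstm3 was 0.85 (adjusted p = 0.00797). Gstm3 had group means of 33.2, 33.5, 22.3, 28.0, 28.7 and 20.5 CPM in AL from ZT2 to ZT22 and 89.4, 32.6, 65.9, 133, 71.0 and 96.4 CPM in CR.

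Gsta4, which conjugates the lipid peroxidation product 4-hydroxynonenal, changed by 0.66 (SE 0.17, adjusted p = 0.0136), from 64.2 ± 18.4 to 103 ± 36.1 CPM. The call was lost with no composition factor (0.63, adjusted p = 0.0506) and among the libraries of lower and of higher ribosomal RNA share (0.13 and 0.24, adjusted p = 0.799 and 0.925). Gsta4 had group means of 52.4, 67.6, 86.7, 48.8, 75.2 and 54.8 CPM in AL from ZT2 to ZT22 and 104, 61.3, 100.4, 160.1, 103 and 90.6 CPM in CR. Gstm1, among the most abundant of the class, changed by 0.64 (SE 0.21, adjusted p = 0.044) and was called in only 8 of 24 fits without 1 library. Its 12 AL libraries had 342, 854 and 1375 CPM and its CR libraries 391, 1281 and 2378 CPM, where the lowest were AL ZT22 2C and CR ZT6 2. Gstm1 had group means of 821, 1093, 929, 801, 1109 and 558 CPM in AL from ZT2 to ZT22 and 1191, 966, 1422, 2107, 1455 and 1186 CPM in CR. The pi-class genes Gstp1 and Gstp2 fell. Gstp1, male-predominant in mouse liver, had 303, 2600.4 and 3358 CPM in AL and 126, 332 and 1252 CPM in CR, and its change was -2.04 (SE 0.26, adjusted p = 1.20e-05). AL libraries spread widely. ZT10, ZT14 and ZT18 held 2467 to 3358 CPM, and AL ZT6 2 held 2859.9 CPM. AL ZT6 1 (738 CPM) and both libraries of ZT2 (1004 and 1063 CPM) and of ZT22 (653 and 303 CPM) lay inside the CR range. Gstp1 had group means of 1033, 1799, 3037, 2912, 2866 and 478 CPM in AL from ZT2 to ZT22 and 291, 779, 179, 803, 429 and 333 CPM in CR. Gstp2 had 1.37, 6.17 and 20.4 CPM in AL and 0.419, 1.07 and 4.53 CPM in CR and changed by -2.21 (SE 0.31, adjusted p = 3.71e-05). It shares 54.3% of its words with Gstp1 and a pseudogene of the family, so part of its signal may come from the far more abundant copy. Gstp3, which shares none, had a log2 change of 0.23 (SE 0.18, adjusted p = 0.478).

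In all, 14 tested glutathione S-transferases were not called, Gsta1 and Gstp3 among them. Gsta3 was the third most abundant per kilobase (205 ± 62.8 CPM per kilobase in AL and 188 ± 69.5 in CR), with a log2 change of -0.15 (SE 0.22, adjusted p = 0.724). Gsta3 had group means of 922, 1017, 778, 889.8, 1082 and 647 CPM in AL from ZT2 to ZT22 and 842, 521, 855, 1219, 832 and 628 CPM in CR. Gstt1, Gstz1, Gsto1, Gstm5 and Gstm7 had log2 changes between -0.03 and 0.07, with standard errors of 0.13 to 0.20. The kappa-class enzyme Gstk1 had 0.32, Gstm2 0.40, Gstm4 0.16, Gstm6 -0.32 and Gstcd -0.43 on the same scale. Gsto2 was near absence (0 to 0.538 and 0 to 0.536 CPM), and its additive estimate was -0.19 (SE 0.75).

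The make-up of each class differed between the diets. Levels were summed within a class as CPM per kilobase. Gstp1 made up 43.8% ± 16.3 of the glutathione class in AL and 14.1% ± 12.8 in CR (mean ± SD, n = 12 libraries), and Gstm1 22.9% ± 6.00 and 40.6% ± 8.30. Among sulfotransferases, Sult2a8 made up 45.2% ± 7.66 in AL and 6.18% ± 4.47 in CR, and Sult1a1 39.6% ± 8.53 and 62.8% ± 12.8. The leading glucuronidation gene was Ugt2b5 in both diets (37.9% ± 7.82 and 36.0% ± 6.27), while Ugt2b1 had 11.6% ± 3.55 and 4.50% ± 1.16. The class sums were 767 ± 282 CPM per kilobase in AL and 530.3 ± 107 in CR for glucuronidation, 236 ± 43.1 and 478 ± 194 for sulfation, and 2753 ± 926 and 2280.5 ± 628 for glutathione conjugation. These sums and shares are descriptions and were not tested.

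**Figure D3:**
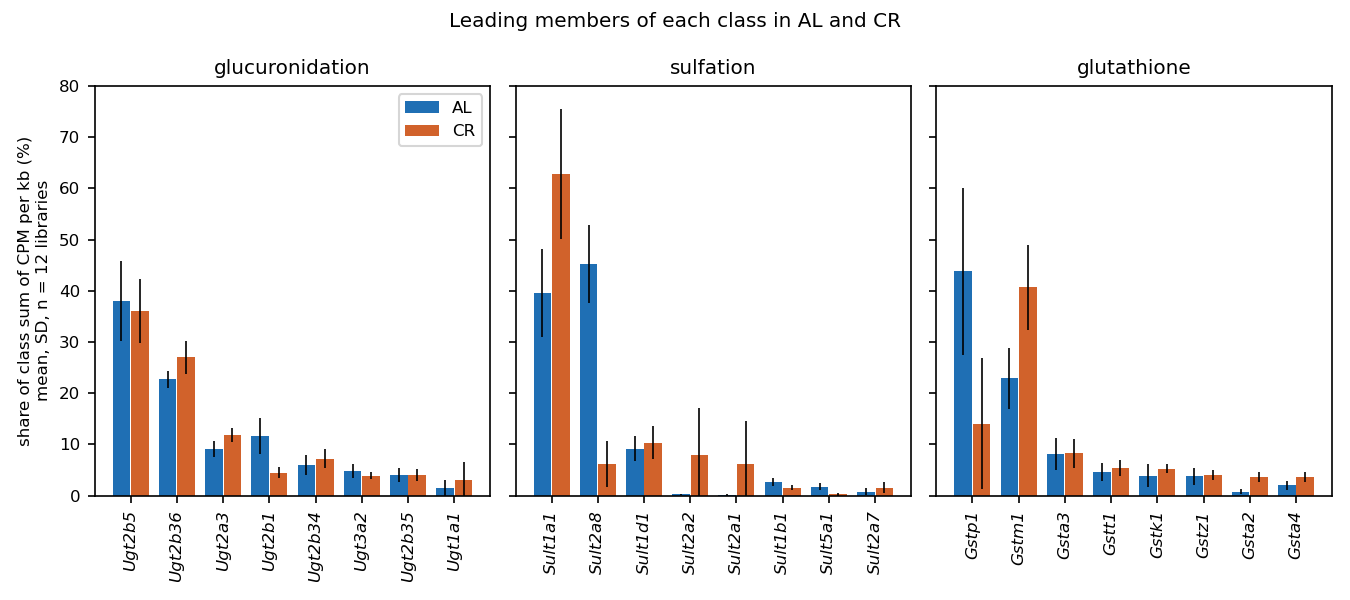
Share of each class sum (CPM per kilobase, %) held by its 8 leading genes in AL (blue) and CR (orange); bars are means and error bars SD over 12 libraries. Sult2a8 and Gstp1 lead their classes in AL, and Sult1a1 and Gstm1 lead them in CR.

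The diet differences were compared between genes that lie side by side. For neighbouring tested members under 100 kb apart (30 pairs, of which 5 are overlapping Ugt1a genes), the log2 ratio of the levels (CPM plus 0.5) was taken within each library. The AL and CR means of this ratio were compared with an exact permutation test that swaps diets within time points (46656 arrangements, two-sided). The ratios come from the same libraries as the diet calls. For a pair with a called member they largely restate that call and give no separate support for it. Unadjusted p was under 0.05 for 18 of the 30 pairs, and in none of them did the AL and CR libraries separate fully. After Benjamini-Hochberg adjustment over the 30 pairs, 17 stayed under 0.05. Neighbouring genes outside these families were not compared, so there is no background share for this count. The p-values below are unadjusted. The only neighbours called in opposite directions were Sult2a8 (chr7:14410686-14446769, GRCm38) and Sult2a7 (chr7:14465051-14494230), 18.3 kb apart on the minus strand. Their log2 ratio changed by -3.99 between the diets (exact permutation p = 4.29e-05, the smallest the swaps can give), from a range of 5.01 to 8.70 in AL to one of 1.45 to 6.69 in CR. On chromosome 10, Gstt1 (chr10:75783813-75798584) had a log2 change of 0.03 and lies between Gstt3 and Gstt2, which rose: the Gstt3-to-Gstt1 ratio changed by 1.55 (exact permutation p = 4.29e-05) and the Gstt1-to-Gstt2 ratio by -1.52 (exact permutation p = 2.14e-04). In the pi cluster on chromosome 19, the Gstp2-to-Gstp3 ratio changed by -1.94 (exact permutation p = 6.00e-04), and that of Gstp1 to Gstp2 by -0.31 (exact permutation p = 0.241). In the Ugt2 cluster, the Ugt2a3-to-Ugt2b38 ratio changed by 3.63 and the Ugt2b34-to-Ugt2b1 ratio by 1.64, both at exact permutation p = 4.29e-05. The Sult1b1-to-Sult1d1 ratio changed by -0.93 (exact permutation p = 4.29e-05), and the Gstm6-to-Gstm3 ratio by -1.66 (exact permutation p = 2.14e-04). The Sult2a2-to-Sult2a1 ratio was 0.01 in AL and 0.22 in CR on the log2 scale (exact permutation p = 0.192).

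**Figure D4:**
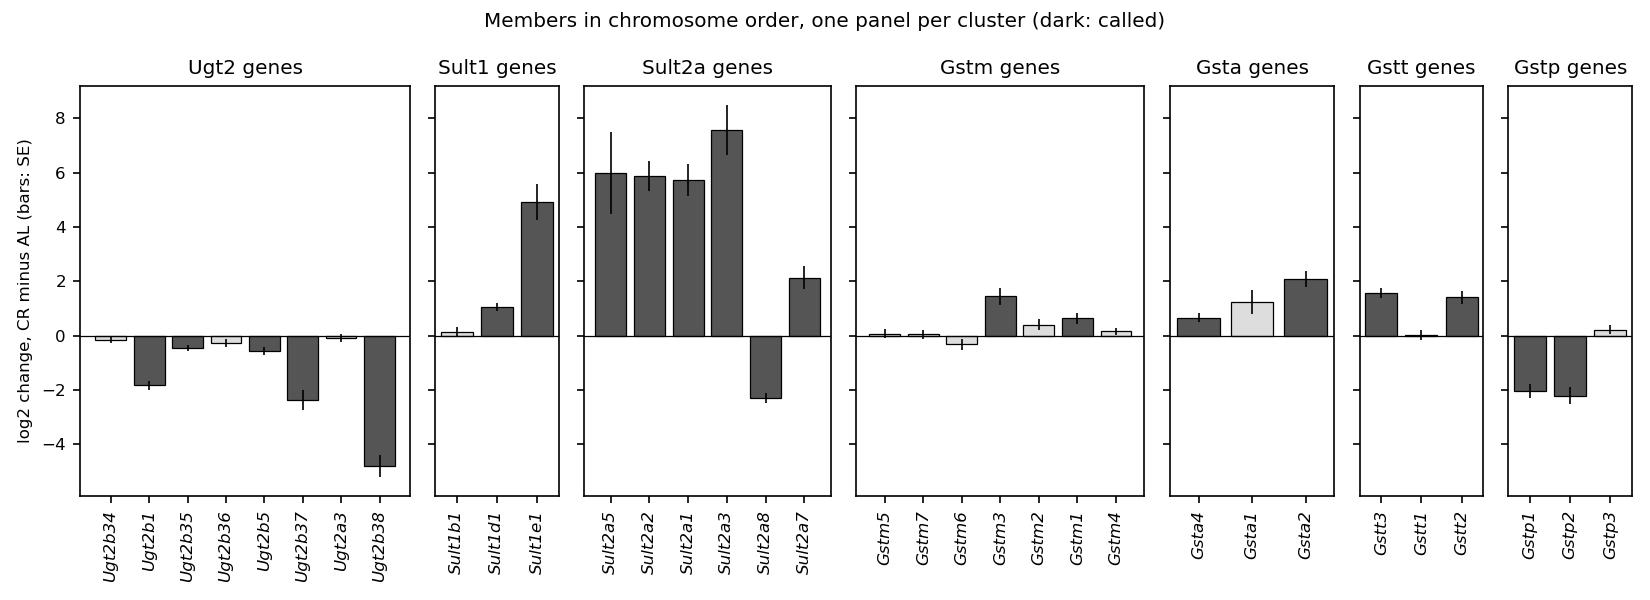
Log2 change between diets (CR minus AL, bars with standard errors) of tested enzymes with a usable standard error, in chromosome order, 1 panel per gene cluster; dark bars are called. Sult2a8 (-2.29) lies between Sult2a3 (7.58) and Sult2a7 (2.14), and Gstt1 (0.03) between Gstt3 (1.56) and Gstt2 (1.42).

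Single time points, with 2 libraries against 2, gave 33 calls over the members. At ZT14 there were 14 (background 1.70%), of which 9 were higher (background 0.717%) and 5 lower (background 0.988%). At ZT22 there were 8 (background 0.936%), of which 4 were higher (background 0.374%) and 4 lower (background 0.562%). ZT10 gave 6 (background 0.742%), of which 2 were higher (background 0.297%) and 4 lower (background 0.445%). ZT2 gave 4 (background 0.562%), all lower (background 0.374%, and 0.187% for higher), and ZT6 gave 1 (background 0.387%), lower (background 0.219%, and 0.168% for higher). None was called at ZT18 by edgeR's test (background 0.562%, higher 0.458% and lower 0.103%), where 16 members and 1634 of the 15490 genes had an unadjusted p under 0.05. Sult2a8 was called at every time point but ZT18, with log2 changes of -1.15 at ZT18 and -3.28 (SE 0.45, adjusted p = 0.00171) at ZT22. Ugt2b38 was called at ZT2, ZT10, ZT14 and ZT22, and its lowest estimate was -6.99 (SE 1.07, adjusted p = 0.0014) at ZT10. At ZT6 and ZT18, where the higher CR libraries CR ZT6 2 and CR ZT18 2 belong, Ugt2b38 stood at -3.15 (SE 0.84, adjusted p = 0.109) and -2.15 (SE 0.79, adjusted p = 0.3). Sult2a1 was called at ZT14, 8.65 (SE 1.60, adjusted p = 0.00525), and at ZT22, 8.64 (SE 1.66, adjusted p = 0.01). Gstp1 and Gstp2 were called at ZT10 alone, with -4.09 (SE 0.70, adjusted p = 0.00311) for Gstp1. Ugt2b37, Gstt2, Gsta2, Gsta4, Sult2a3 and Sult2a5 were called at ZT14 alone.

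The size of the diet difference was not shown to vary with time. No member, and none of the 15490 genes, was called for the interaction of diet and time in edgeR's quasi-likelihood test (background 0%), with 1337 genes and 15 members at an unadjusted p under 0.05. DESeq2's likelihood ratio test called 188 genes, among them 1 member, Sult1c2 (adjusted p = 0.0413). For a 24 h cosine, no member was called in AL (background 0.420%, 11 members and 1608 genes at an unadjusted p under 0.05), in CR (background 1.94%, 14 members and 2700 genes) or for the difference between diets (background 0%, 10 members and 1005 genes). The lowest adjusted p in AL was that of Gstp2 (0.136), with AL group means of 2.50, 3.72, 12.3, 9.73, 14.2 and 2.37 CPM from ZT2 to ZT22. In CR it was that of Sult2a5 (0.101). Gstp1, with a fitted AL amplitude of 1.14 on the log2 scale and group means of 1033, 1799, 3037, 2912, 2866 and 478 CPM, had an adjusted p of 0.345. One day sampled every 4 h with 2 libraries per group leaves such patterns as descriptions.

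Genes around the enzymes were read from 10 lists. Over all tested genes, 5.60% were called higher in CR and 7.05% lower. No list was tested against these shares, and a count of 1 gene in lists this short cannot be told from them. Of 10 genes listed around UDP-glucuronate supply, 1 was higher and 1 lower. The list reaches beyond the genes that make or carry UDP-glucuronate. Entpd5 changed by 0.43 (SE 0.12, adjusted p = 0.0157) and Slc35b1 by -0.65 (SE 0.14, adjusted p = 0.00395) on the log2 scale, and Ugdh, which makes UDP-glucuronate, stood at 0.03. Of 9 genes for PAPS, Papss2, the main liver PAPS synthase, was higher at 0.57 (SE 0.15, adjusted p = 0.0122), and Papss1 was lower at -0.70 (SE 0.20, adjusted p = 0.0265). Among 11 tested genes of glutathione supply, 2 were higher and 1 lower. Cth, which makes cysteine, changed by 0.92 (SE 0.15, adjusted p = 1.55e-04), Chac1, which degrades glutathione, by -1.75 (SE 0.49, adjusted p = 0.0213), and Ggt6 by 0.41 (SE 0.13, adjusted p = 0.0344). Other conjugating enzymes gave 2 higher and 4 lower of 17. The acetyltransferase Nat8 changed by -2.30 (SE 0.25, adjusted p = 1.42e-06), the microsomal glutathione transferase Mgst3 by 1.62 (SE 0.25, adjusted p = 1.38e-04), and the methyltransferase Tpmt by -0.60 (SE 0.12, adjusted p = 0.00203). Enzymes that remove conjugates gave 1 higher and 1 lower of 5, with the sulfatase Arsa at -1.11 (SE 0.19, adjusted p = 3.09e-04) and Ces1d at 0.51 (SE 0.16, adjusted p = 0.041).

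Among 8 efflux carriers 2 were higher and 1 lower: Abcb1a changed by 2.81 (SE 0.28, adjusted p = 2.44e-07), Abcc4, which exports conjugates to blood, by 2.23 (SE 0.34, adjusted p = 9.12e-05), and Abcg2 by -0.61 (SE 0.17, adjusted p = 0.0194). Of 7 uptake carriers 1 was higher and 3 were lower. Slco1a1, a male-predominant organic anion carrier, had 179 ± 43.8 CPM in AL and 14.2 ± 25.4 in CR, a change of -4.80 (SE 0.37, adjusted p = 7.49e-09). Its relative Slco1a4 changed by 2.70 (SE 0.19, adjusted p = 3.07e-09) and Slc22a7 by -2.05 (SE 0.28, adjusted p = 2.75e-05). In 14 tested phase I genes listed as targets of CAR, PXR or AHR, 7 were higher and 1 lower. The list includes female-predominant cytochromes P450, so its count is no measure of receptor activity, which was not tested. Cyp2b9 changed by 6.81 (SE 0.46, adjusted p = 1.95e-09) and Cyp2b13 by 6.89 (SE 0.56, adjusted p = 1.94e-08), both female-predominant cytochromes P450. Por, the electron donor of these enzymes, changed by 1.26 (SE 0.14, adjusted p = 1.76e-06). Of 19 tested NRF2 targets outside the member families 4 were higher and 1 lower. Nqo1, a standard readout of NRF2, changed by 1.45 (SE 0.18, adjusted p = 5.12e-06) and Aox1 by -1.04 (SE 0.17, adjusted p = 2.28e-04). Of 27 regulators 6 were higher and 3 lower. Cux2, a female-predominant liver repressor, changed by 5.95 (SE 0.37, adjusted p = 1.27e-09), and the growth hormone receptor Ghr by -0.97 (SE 0.17, adjusted p = 3.58e-04). Nfe2l2, which encodes NRF2, stood at 0.00. The lists share genes, so their counts are not independent. None of the counts was tested against the 5.60% higher and 7.05% lower of all tested genes.

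**Figure D5:**
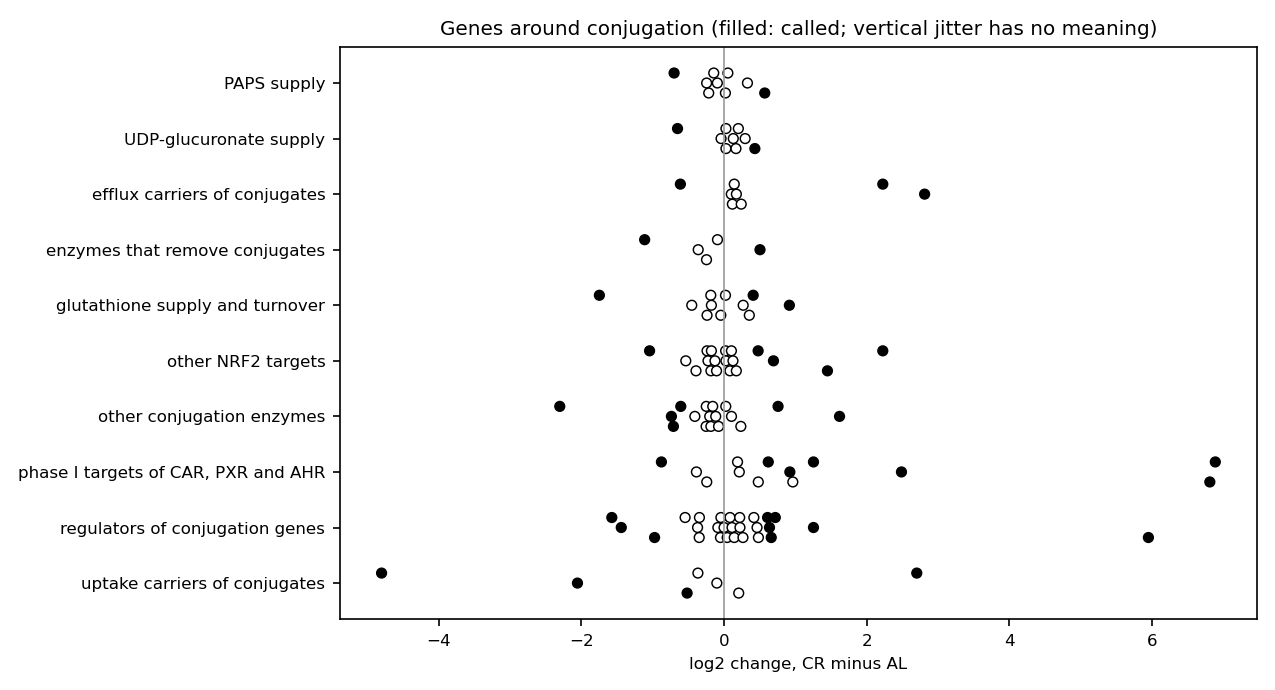
Log2 change between diets (CR minus AL) of the genes of 10 lists around conjugation that were tested with counts in every group; filled points are called and the vertical scatter has no meaning. Values reach 6.89 (Cyp2b13) in the phase I list and -4.80 (Slco1a1) among uptake carriers.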

How the data were processed

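The deposited files hold raw counts of reads per Ensembl gene, 1 file per library; per the submitters' processing notes FastQC, HTSeq and DESeq2 were used with GRCm38.p5. The aligner is not given in the sources used here, nor are tool versions. Per the labels, libraries were poly(A)-selected and not stranded, so antisense partners cannot be told apart. Symbols, exon lengths and shared exons came from GENCODE M21, promoters from RefSeq. Depth was 13.8 to 60.8 M counts per library, and its error is covered by the spread between libraries.

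Genes passing filterByExpr (12 groups) were fitted with edgeR 4.0.16 (TMM, a mean per group, quasi-likelihood F-test) in R 4.3.3. Contrasts were the diet average, each time point, the interaction and a 24 h cosine per diet, adjusted by Benjamini-Hochberg over 15490 genes at 0.05. CPM were scaled by TMM. Levels per kilobase used exon bases no other gene covers. DESeq2 1.42.0 was an alternative. Same-number libraries were checked for pairing: 9 of 55 group pairs correlated above 0.1, so the numbers were not taken to pair libraries. Other scalings, filters, an additive model, a replicate block and fits without libraries were alternatives.

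Members and lists were chosen with earlier results of these data known. Named were, per class, up to 6 called members of smallest p in each direction, the 3 of highest level per kilobase and up to 3 called genes per other list; further members are named to account for all. Protein sequences were not used here.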

Additional observations from a re-analysis of the deposited data

How the results depend on the processing

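The diet-average calls kept their direction in every alternative except Ugt1a9, at -0.70 among the 12 libraries with less ribosomal RNA. Of the 27 called enzymes, 20 were called in all 24 fits without 1 library; the others were Ugt1a9, Gstm1, Ugt2b5, Ugt2b35, Sult1e1, Sult2a3 and Sult2a5. Leaving out 1 library gave 12 to 16 enzymes higher, 9 to 12 lower, 1412 to 2708 genes called in all, 21 to 44 calls at single time points (21 without CR ZT14 1), 0 to 41 genes (41 without CR ZT6 1) and 0 to 1 members for the interaction, and 0 to 1 members rhythmic in CR, with 0 to 0 in AL and for the difference. Those members were Gstm3 without CR ZT6 1 (interaction), and Ugt2b38 without CR ZT6 2 and Sult2a1 without CR ZT14 1 (rhythm in CR).

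In the 12 libraries of higher ribosomal RNA share (an alternative chosen after seeing the data, as was that of lower share), 3 enzymes were higher, 5 lower and 84 genes were called. Both diets were present there only at ZT6 and ZT22, and in the libraries of lower share only at ZT10 and ZT18. All genes called numbered 1170 with no composition factor and 1293 without AL ZT10 1 and AL ZT22 2C. For the interaction, DESeq2 called 188 genes and 1 member, no composition factor 3 genes, and no low-count filter 709 genes and 16 members. Without that filter, single time points gave 110 calls and the cosine 4 members in AL, 14 in CR and 9 for the difference, against 1 in CR (Sult2a5) with no composition factor. Their causes were not tested. With the replicate number as a block, 15 enzymes were higher, 11 lower, 1790 genes called and 1 gene called for the interaction; Gstm1 lost its call (adjusted p = 0.0665). Per-kilobase levels with full exon length are lower for Ugt1a genes, by construction: Ugt1a1 8.89 against 1.54 CPM per kilobase in AL.

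Groups of 2 libraries, unequal depth and shared sequence between copies limit these values. Members with few counts have wide errors. Copies with shared sequence are uncertain as single genes: Sult2a1, Sult2a2 and Sult2a5, Gsta1 and Gsta2, Gstp1 and Gstp2, and Ugt2b5, Ugt2b37 and Ugt2b38.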

Other observations

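Several members too scarce to test had reads in 1 diet. Sult2a4, Sult2a6 and Sult3a2 had 0 counts over the 12 AL libraries and 7, 14 and 33 counts over the 12 CR libraries, and Gstt4 had 0 and 5. Sult4a1 had 2 counts in AL and 12 in CR, Sult6b1 2 and 6, Ugt1a10 8 and 12, Ugt1a8 1 and 6, and Ugt1a2 16 and 5. Sult1c1, Sult6b2, Ugt2a1 and Ugt2a2 had none in either diet; Ugt2a1 and Ugt2a2 share 98.8% and 94.5% of their exon bases with other genes, so reads on them may not have been counted. At counts this low, no level is compared.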
